A study of Mus musculus with 4 samples.

Results

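RNA levels of 9 genes that write, erase or read methylation of DNA were compared between the long-term (LT-HSC) and short-term (ST-HSC) haematopoietic stem cells of mouse bone marrow. The genes were Dnmt1, Dnmt3a, Dnmt3b, Uhrf1, Tet1, Tet2, Tet3, Mbd1 and Mbd2, and every probe set annotated to one of these symbols alone was taken, 26 of the 45037 probe sets of the array that were not controls. Each group held 2 Affymetrix expression arrays. LT-HSC were sorted as Lin-cKit+Sca1+CD34-CD135- cells and ST-HSC as the CD34+ cells of the same gate. All mice were C57BL/6 control animals that carried floxed alleles but were MxCre-, without the Cre transgene. Each had been injected 7 times with poly(I:C), an RNA mimic of a virus that triggers interferon. Age was 7.5 weeks, and the interval since the last injection 4 weeks, for both LT-HSC replicates and ST-HSC replicate 2, while for ST-HSC replicate 3 they were 8.5 weeks and 3 weeks. The labels do not say whether the 2 LT-HSC samples came from separate animals or pools, so p-values measure only the spread between these samples, which may be technical. For both ST-HSC samples the tissue label says LT-HSC although their gate is CD34+, and groups follow the titles.

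DNA methylation is the addition of a methyl group to cytosine, in mammals mostly where cytosine is followed by guanine (CpG). Dnmt3a and Dnmt3b place new marks, Dnmt1 copies marks onto the daughter strand after replication, and Uhrf1 recognises half-methylated CpG behind the replication fork and recruits Dnmt1. The Tet enzymes oxidise methylcytosine, which leads to its loss, and Mbd1 and Mbd2 bind methylated CpG and bring repressor complexes to it. Dnmt3a and Tet2 are known from blood as genes whose mutation gives stem cells a growth advantage.

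The gate was checked first. Pairs of deposited intensity are given throughout for LT-HSC replicates 1 and 2, then for ST-HSC replicates 2 and 3. Cd34, the marker that separated the groups, read 18.3 and 23.5 on the LT-HSC arrays, and 841 and 1142 on the ST-HSC arrays, as the gates require. Kit and Flt3, the receptors that the gates name as cKit and CD135, differed by -1.02 (SE 0.26, adjusted p = 0.0497) and -1.37 (SE 0.38, adjusted p = 0.0633). Differences and medians in this paragraph are LT-HSC minus ST-HSC on the log2 scale given in the next one. Kit passed limma's threshold of 0.05 as higher in ST-HSC, and Flt3 missed it. The gene of Sca1 was not analysed here. ST-HSC replicate 3 stood apart in its control probe sets. The ratio of 3′ to 5′ signal, which is lower where transcripts were copied further, was 6.65 for beta-actin and 6.59 for Gapdh on that array, against 18.4 to 19.6 and 13.9 to 15.7 on the other 3. Its 4 control transcripts with a poly-A tail read 3160 to 5950 at their 3′ ends, against at most 379 elsewhere. Summed over 8 granulocyte markers the intensity was 43200 on ST-HSC replicate 3 and 3360 on ST-HSC replicate 2, beside 3760 and 518 in LT-HSC, and 0 of 7 tested passed (median -3.56). Summed over 15 markers of B cells and plasma cells it was 48100 and 49400 on the LT-HSC arrays, and 2280 and 3680 on the ST-HSC arrays, and 11 of these 15 genes were higher in LT-HSC. Of the markers of T and NK cells 3 of 5 passed, of monocytes and their kin 1 of 8, of erythroid cells 0 of 4 and of megakaryocytes 2 of 6. The summed erythroid markers were also highest on ST-HSC replicate 3, at 1560 against 189 on ST-HSC replicate 2 and 146 and 392 in LT-HSC. So were those of monocytes and their kin, at 4250 against 1130, and 1710 and 1240 in LT-HSC. Over all these lists no marker was listed at 0 by its brightest probe set. Whether these other cell types or the handling of that array have a part in the results below was not tested. In bulk samples fewer cells of a type and less RNA per cell cannot be told apart.

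Dnmt1 and Uhrf1, the maintenance pair, were higher in ST-HSC. All 3 probe sets of Dnmt1 and 1 of 2 of Uhrf1 passed, together with 1 of 4 of Tet1. Of the 25 probe sets of the 9 genes that passed the filter on dim values, 5 were higher in ST-HSC, 0 were higher in LT-HSC and the other 20 missed the threshold, and 11 had an unadjusted p under 0.05. Among all 27022 probe sets tested, 5.47% were higher in ST-HSC, 6.71% were higher in LT-HSC and 12.2% passed in either direction. For 8210 of the 27022, limma's unadjusted p was under 0.05. The median difference of the 25, LT-HSC minus ST-HSC on the log2(normalized intensity + 16) scale, was -0.30, beside -0.08 over all probe sets. Every difference below is on that scale, which understates the fold of dim probe sets. The p-values are limma's, adjusted by Benjamini-Hochberg over all probe sets tested, with a threshold of 0.05. With 2 arrays against 2 an exact permutation test cannot go below a two-sided p of 0.33, so no single value was tested that way. With LT-HSC replicate 1 or 2 left out, Dnmt1 1422946_a_at stood at -1.66 or -1.71 and Uhrf1 1415810_at at -2.22 or -2.90. Such a fit took its spread from the ST-HSC pair, and a fit without an ST-HSC array from the LT-HSC pair. The ST-HSC arrays differed more from each other (SD of the difference 0.7) than the LT-HSC arrays did (0.49). Of the 25, fewer passed in limma without an LT-HSC array and more passed without an ST-HSC array. Calls over all probe sets moved the same way, to 1.8% and 1.82% without an LT-HSC array and to 32.2% and 22.2% without ST-HSC replicate 2 or 3. Calls below that appear only with an ST-HSC array left out are to be read against these shares.

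**Figure D1:**
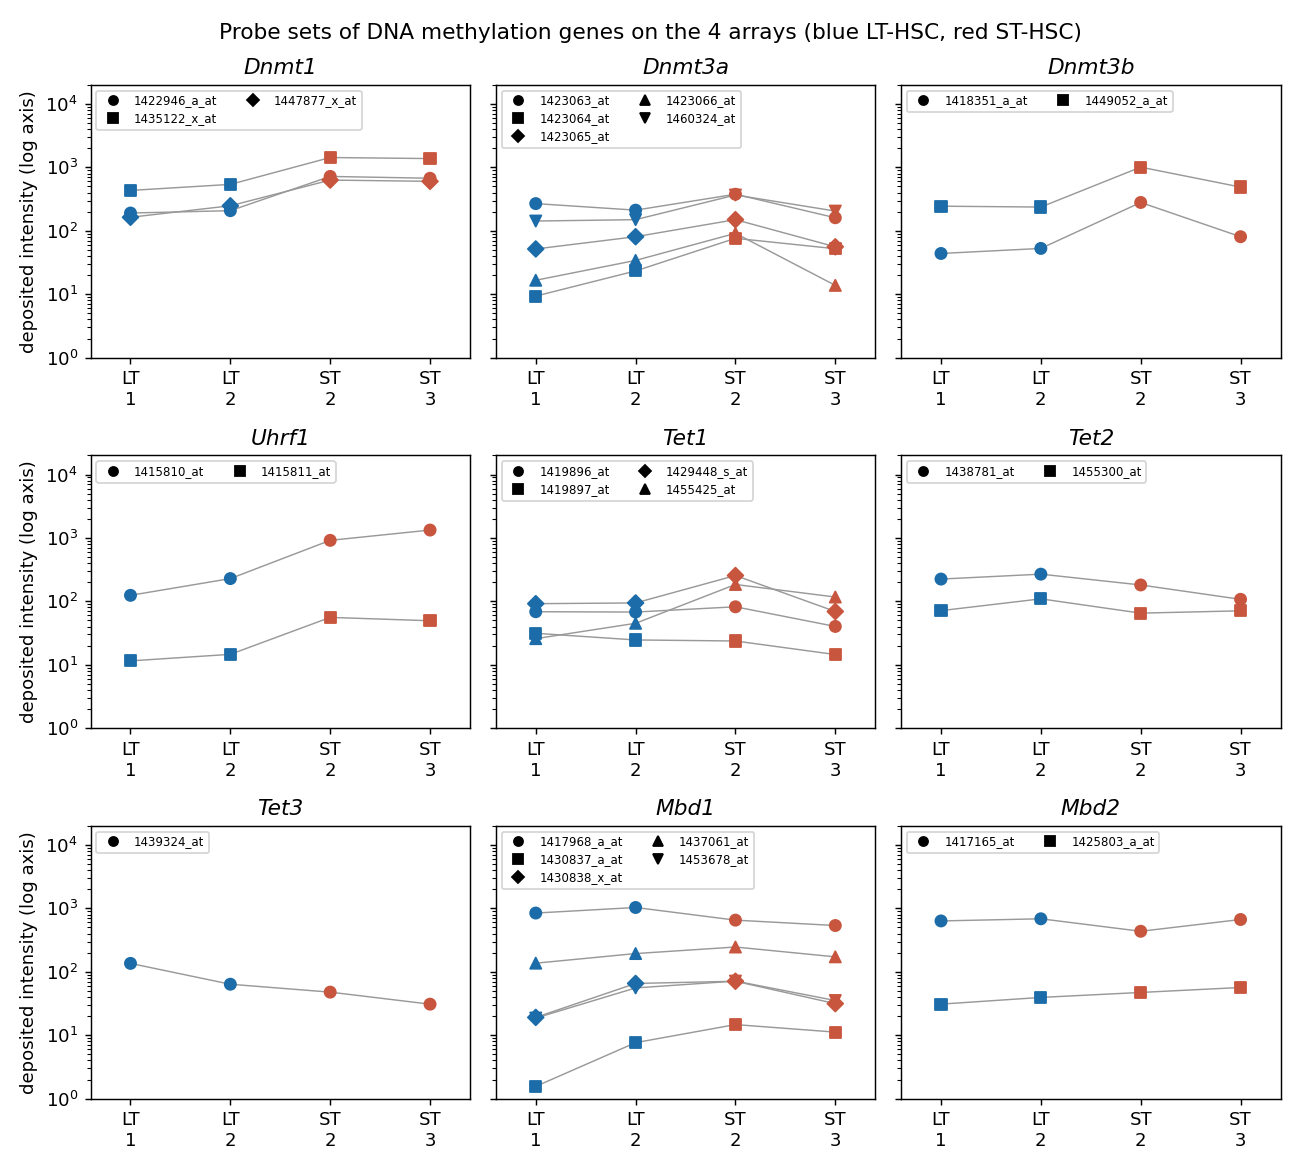
Deposited intensity (log axis) of the 26 probe sets on each of the 4 arrays, 1 panel a gene; blue marks are LT-HSC replicates 1 and 2, red marks are ST-HSC replicates 2 and 3, and a grey line joins the values of 1 probe set. The 3 probe sets of Dnmt1 and both of Uhrf1 lie higher on both ST-HSC arrays than on both LT-HSC arrays, while those of Dnmt3a and Dnmt3b are highest on ST-HSC replicate 2.

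Dnmt1, the maintenance methyltransferase, was measured by 3 probe sets that share their gene and are not independent. Probe set 1435122_x_at read 433 and 540 on the LT-HSC arrays, and 1433 and 1378 on the ST-HSC arrays. Probe set 1422946_a_at read 191 and 208 against 721 and 675, and 1447877_x_at read 164 and 248 against 631 and 603. On each of the 3, both ST-HSC arrays lay above both LT-HSC arrays. The normalized log2 means of 1435122_x_at were 8.97 ± 0.20 (SD, n = 2) in LT-HSC and 10.58 ± 0.09 (SD, n = 2) in ST-HSC, a difference of -1.61 (SE 0.24, adjusted p = 0.00968), or 3.05-fold. The other probe sets differed by -1.72 (SE 0.27, adjusted p = 0.0116) and -1.49 (SE 0.29, adjusted p = 0.0234). An ending in _x_at marks probe sets some of whose probes also match other sequences, and 1422946_a_at is free of that mark. Over the 13 alternatives the difference of 1435122_x_at ranged from -1.72 to -1.40. It missed the threshold without LT-HSC replicate 1 (-1.44, adjusted p = 0.184) and without LT-HSC replicate 2 (-1.72, adjusted p = 0.112), as did the other 2 probe sets.

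Uhrf1, the recruiter of Dnmt1 to freshly copied DNA, had the largest difference among the 25 probe sets. Probe set 1415810_at read 124 and 228 on the LT-HSC arrays, and 915 and 1331 on the ST-HSC arrays. The log2 means were 7.61 ± 0.44 (SD, n = 2) and 10.21 ± 0.34 (SD, n = 2), and the difference was -2.60 (SE 0.33, adjusted p = 0.00598), or 6.07-fold. The LT-HSC arrays differed from each other by -0.63 and the ST-HSC arrays by -0.48, so the groups lay far apart beside their own spread. Its second, dim probe set 1415811_at read 11.5 and 14.6 against 55.8 and 49.4. The groups did not overlap there either, and the difference of -1.12 (SE 0.30, 95% interval -1.83 to -0.41) did not pass (adjusted p = 0.0548). It passed after median centring of the arrays (-1.14, adjusted p = 0.0421). Without LT-HSC replicate 1 or 2 the first probe set stood at -2.22 (adjusted p = 0.0987) or -2.90 (adjusted p = 0.0523).

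The promoters of these genes were read from RefSeq windows of assembly GRCm38.p6, each from 250 bases before to 50 after an annotated transcript start, and 7 of the 9 genes were used, with 12 windows. The windows were searched on both strands for 3 kinds of word that occur in promoters of cell cycle genes. These were E2F words (TTTGGCGC, TTTCCCGC, TTTGCCGC or TTTCGCGC), CCAAT, and the CHR word TTTGAA. The E2F words stood in 1 of 3 windows of Dnmt1 and 1 of 2 of Uhrf1 and in no window of the other 5 genes. Of all 32851 windows of that length 2.26% held an E2F word, and of the 3837 windows with 30 or more CpG 5.06% did. CCAAT stood in 37.4% of all windows and TTTGAA in 17.9%. Both windows with E2F words are shown with the words in capitals, CCAAT (or ATTGG, its other strand) included, 5′ to 3′ on the strand of the gene. The Dnmt1 window is chr9:20952574-20952873 on the minus strand and the Uhrf1 window chr17:56304063-56304362 on the plus strand. In each, 33 CpG were counted, beside a median of 7 over all windows.
Dnmt1 window 3: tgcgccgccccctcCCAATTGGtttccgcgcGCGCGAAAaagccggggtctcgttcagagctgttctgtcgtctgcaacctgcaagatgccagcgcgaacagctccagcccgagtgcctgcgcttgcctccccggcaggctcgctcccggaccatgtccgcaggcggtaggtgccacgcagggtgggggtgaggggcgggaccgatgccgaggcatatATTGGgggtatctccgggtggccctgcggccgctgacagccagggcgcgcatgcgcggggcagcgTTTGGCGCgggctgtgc
Uhrf1 window 2: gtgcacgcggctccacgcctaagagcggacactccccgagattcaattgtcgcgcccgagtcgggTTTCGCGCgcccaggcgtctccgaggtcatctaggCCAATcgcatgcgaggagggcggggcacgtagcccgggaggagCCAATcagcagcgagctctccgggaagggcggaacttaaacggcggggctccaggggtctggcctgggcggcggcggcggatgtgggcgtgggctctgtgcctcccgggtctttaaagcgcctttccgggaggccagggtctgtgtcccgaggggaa
In Dnmt1 window 3 the E2F words begin at bases -219 and 34 from the start, the former on the other strand and so read as GCGCGAAA, and the first CCAAT overlaps an ATTGG in the palindrome near the left end. In Uhrf1 window 2 the E2F word begins at base -185 from the start and is followed by 2 CCAAT words. A match is a description of letters and not evidence of a binding site.

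**Figure D2:**
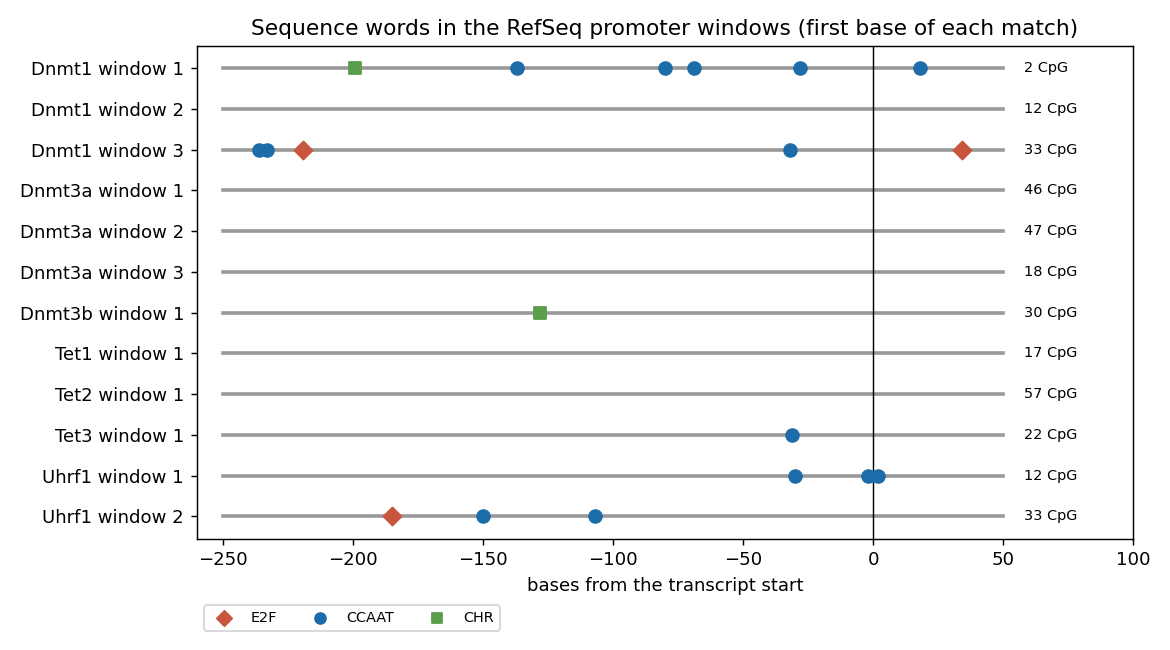
Position of E2F, CCAAT and CHR words in the 12 promoter windows of 7 genes, in bases from the transcript start (vertical line), with the number of CpG at the right. E2F words (red diamonds) are seen in Dnmt1 window 3 and Uhrf1 window 2, and the windows of Dnmt3a, Tet1 and Tet2 hold none of the 3 kinds.

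Neither of the de novo methyltransferases passed. Dnmt3b probe set 1449052_a_at read 245 and 237 on the LT-HSC arrays, and 1010 and 490 on the ST-HSC arrays, and 1418351_a_at read 43.9 and 52.7 against 280 and 80.7. Both ST-HSC arrays were above both LT-HSC arrays on each, and ST-HSC replicate 2 was well above replicate 3. The differences were -1.51 (SE 0.41, 95% interval -2.48 to -0.55, adjusted p = 0.0561) and -1.31 (SE 0.50, 95% interval -2.51 to -0.12, adjusted p = 0.136). Probe set 1449052_a_at just missed the threshold. It passed after median centring of the arrays (-1.38, adjusted p = 0.0408), with no normalization (-1.49, adjusted p = 0.034), with cyclic loess (-1.40, adjusted p = 0.0474), and with ST-HSC replicate 2 or 3 left out (-0.98 or -2.09, adjusted p = 0.00561 or 5.12e-06). Probe set 1418351_a_at passed without ST-HSC replicate 3 (-2.05, adjusted p = 0.00108), and stood at -0.55 without ST-HSC replicate 2.

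The 5 probe sets of Dnmt3a, the other de novo enzyme, all missed the threshold. Probe set 1423063_at read 269 and 212 on the LT-HSC arrays, and 378 and 161 on the ST-HSC arrays, so that the ST-HSC arrays enclosed both LT-HSC values. Its difference was -0.01 (SE 0.42, adjusted p = 0.992), with a lower 95% bound of -1.01. Its sign turned after median centring of the arrays (0.05), with cyclic loess (0.11) and with LT-HSC replicate 2 (0.19) or ST-HSC replicate 2 (0.56) left out. Probe set 1460324_at read 143 and 150 against 367 and 205 and differed by -0.76 (SE 0.35, adjusted p = 0.194). It was called without ST-HSC replicate 3 (-1.13, adjusted p = 0.00615) and stood at -0.40 without ST-HSC replicate 2. The dim probe set 1423064_at read 9.33 and 23.3 against 76.2 and 52.2. Its groups did not overlap, its difference of -1.21 (SE 0.31) just missed the threshold (adjusted p = 0.0515), and it passed after median centring of the arrays (adjusted p = 0.0366). Probe set 1423065_at read 51.7 and 80.7 against 150 and 55.9, and 1423066_at read 16.6 and 34.1 against 91.3 and 13.8. On both, ST-HSC replicate 2 was the highest array, and replicate 3 lay within or below the LT-HSC values. They differed by -0.30 and -0.31 with overlapping groups (adjusted p = 0.661 and 0.747). Whether the probe sets of Dnmt3a differ from each other was not tested.

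Among the Tet enzymes, 1 probe set passed. Of the 4 probe sets of Tet1, 1455425_at was higher in ST-HSC. It read 25.8 and 45.0 on the LT-HSC arrays, below the 184 and 117 of ST-HSC, and its difference was -1.57 (SE 0.32, adjusted p = 0.0276), or 2.98-fold. With LT-HSC replicate 1 or 2 left out it no longer passed (-1.45 or -1.71, adjusted p = 0.232 or 0.145). The other 3 probe sets of Tet1 did not pass. Probe set 1429448_s_at read 91.8 and 94.2 against 255 and 69.1, which puts the ST-HSC arrays on either side of LT-HSC (-0.39, SE 0.51, adjusted p = 0.648). It was called without ST-HSC replicate 3 (-1.15, adjusted p = 0.0169) and stood at 0.39 without ST-HSC replicate 2. Probe set 1419896_at read 68.5 and 67.7 against 81.9 and 40.2, and 1419897_at read 31.3 and 24.6 against 23.7 and 14.5. They differed by 0.32 (SE 0.35) and 0.46 (SE 0.35), opposite in sign to the called one. No difference between these probe sets was tested.

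Tet2 and Tet3 read higher in LT-HSC on every one of their 3 probe sets, and none passed. Tet2 probe set 1438781_at read 224 and 268 on the LT-HSC arrays, and 181 and 107 on the ST-HSC arrays, with both LT-HSC arrays above both ST-HSC arrays. The difference was 0.84 (SE 0.32, 95% interval 0.07 to 1.61, unadjusted p = 0.0358, adjusted p = 0.136), and it was called without ST-HSC replicate 2 (1.13, adjusted p = 0.00714). Tet2 probe set 1455300_at read 71.3 and 109 against 65.1 and 70.8 and differed by 0.46 (SE 0.31, adjusted p = 0.365). Tet3 was measured by probe set 1439324_at alone, which read 136 and 63.7 on the LT-HSC arrays, and 47.8 and 30.9 on the ST-HSC arrays. Its difference of 1.11 (SE 0.44, 95% interval 0.06 to 2.16) did not pass (adjusted p = 0.147), and the LT-HSC arrays differed from each other by 1.17. Without LT-HSC replicate 1 it stood at 0.52 and without LT-HSC replicate 2 at 1.73. The promoter windows of Tet1 and Tet2 are set beside each other because one Tet1 probe set was higher in ST-HSC and Tet2 read higher in LT-HSC. No capitals appear, since neither held a searched word. The Tet1 window is chr10:62887275-62887574 and the Tet2 window chr3:133544341-133544640, both on the minus strand. They hold 17 and 57 CpG, and the latter is the highest number among the 12 windows.
Tet1 window 1: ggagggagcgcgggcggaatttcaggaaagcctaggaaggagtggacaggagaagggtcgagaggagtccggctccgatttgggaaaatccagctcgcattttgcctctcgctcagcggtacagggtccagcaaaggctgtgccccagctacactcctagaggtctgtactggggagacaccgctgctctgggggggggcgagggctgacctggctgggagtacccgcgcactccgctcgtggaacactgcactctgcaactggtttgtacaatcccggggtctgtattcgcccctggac
Tet2 window 1: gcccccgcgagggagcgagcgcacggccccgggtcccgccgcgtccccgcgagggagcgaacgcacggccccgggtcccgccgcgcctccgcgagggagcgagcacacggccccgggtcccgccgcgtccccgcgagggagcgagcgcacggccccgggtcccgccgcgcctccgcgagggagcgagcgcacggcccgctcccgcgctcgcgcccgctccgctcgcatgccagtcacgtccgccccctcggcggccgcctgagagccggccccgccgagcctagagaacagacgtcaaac

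The readers Mbd1 and Mbd2 had no probe set past the threshold. Mbd1 probe set 1417968_a_at read 845 and 1034 on the LT-HSC arrays, and 653 and 537 on the ST-HSC arrays. The groups did not overlap, and the difference was 0.56 (SE 0.26, 95% interval -0.06 to 1.19, adjusted p = 0.201). It was called without ST-HSC replicate 2 (0.76, adjusted p = 0.00614). Its probe set 1437061_at read 137 and 194 against 246 and 172, differing by -0.20 (SE 0.31), with overlapping groups. The dim probe sets 1430838_x_at, at 19.1 and 65.5 against 71.0 and 31.5, and 1453678_at, at 18.6 and 55.7 against 71.4 and 35.2, overlapped as well and differed by -0.11 and -0.29. Mbd1 probe set 1430837_a_at, at 1.56 and 7.63 against 14.7 and 11.2, lay below the filter and was the 1 probe set of the 26 left untested. Mbd2 probe set 1417165_at read 634 and 686 on the LT-HSC arrays, and 436 and 668 on the ST-HSC arrays, with a difference of 0.26 (SE 0.29, 95% interval -0.43 to 0.95, adjusted p = 0.579). It was called without ST-HSC replicate 3 (0.55, adjusted p = 0.038) and turned to -0.03 without ST-HSC replicate 2. The dim probe set 1425803_a_at read 30.9 and 39.4 against 47.2 and 56.6 and differed by -0.30 (SE 0.31, adjusted p = 0.552).

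**Figure D3:**
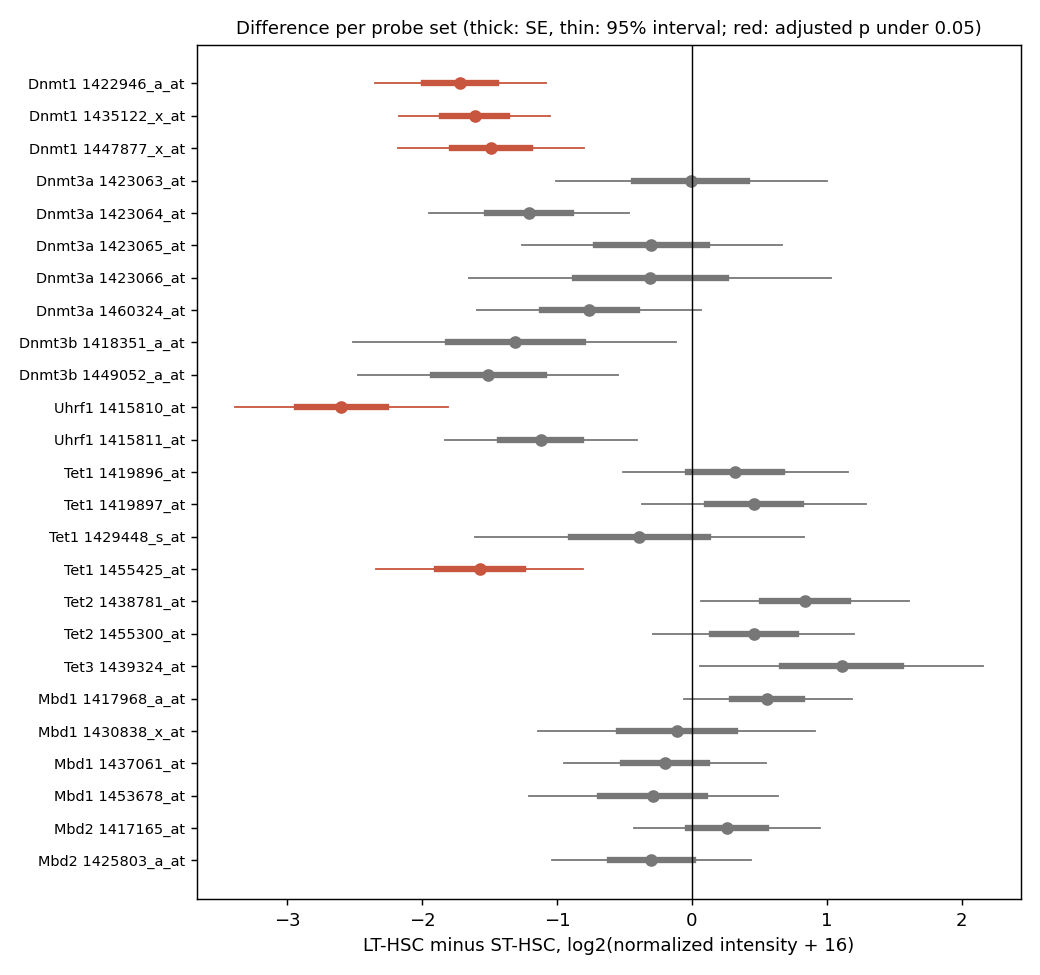
Difference between LT-HSC and ST-HSC (LT-HSC minus ST-HSC, log2 scale) for the 25 tested probe sets, with the SE (thick line) and the 95% interval (thin line); red marks passed limma's test. The 5 red marks lie between -2.60 and -1.49, and the probe sets of Tet2 and Tet3 lie to the right of 0.

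The order of the arrays differed among the genes. Of the 25 tested probe sets, 11 had both ST-HSC arrays above both LT-HSC arrays, 4 had both LT-HSC arrays above, and 10 overlapped. Over all probe sets tested 34.2% lay the first way and 26.9% the second, and 61.1% did not overlap, so the number without overlap is near the background. Within ST-HSC, 20 of the 25 were higher on replicate 2 than on replicate 3, where 49.1% of all probe sets were. A gap above 1 on the log2 scale was seen in 6 of the 25, beside 7.28% of all probe sets. These 6 were 3 probe sets of Dnmt3a (gaps of 1.11, 1.01 and 1.76), both of Dnmt3b (1.15 on 1449052_a_at and more on 1418351_a_at) and Tet1 1429448_s_at (1.55). Probe sets of 1 gene share their source, so these counts stand for few genes. The same pair of arrays differed by 0.13 to 0.21 on Dnmt1 and by -0.48 and -0.05 on Uhrf1. ST-HSC replicate 3 is also the array from older mice, with the lower 3′ to 5′ ratios and the granulocyte, monocyte and erythroid markers given above, and their part in these gaps was not tested.

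**Figure D4:**
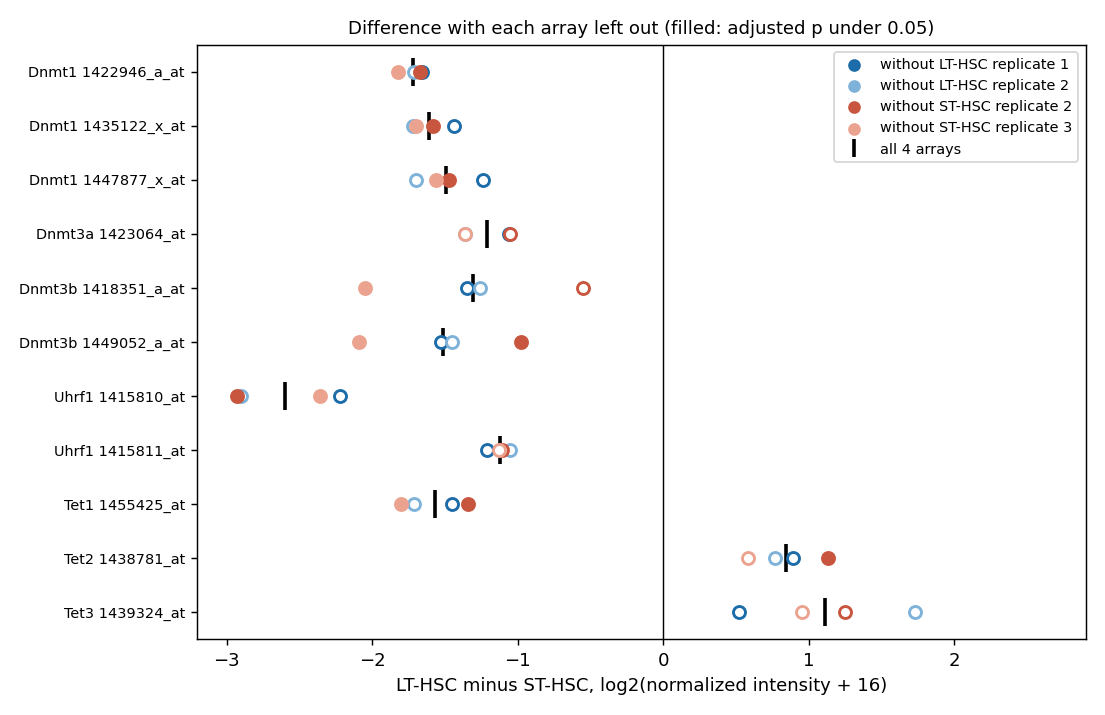
Difference between LT-HSC and ST-HSC for the 11 probe sets with an unadjusted p under 0.05, with all 4 arrays (black bar) and with each array left out (circles); filled circles passed limma's test. Dnmt1 and Uhrf1 stay at or below -1.05 whichever array is left out, while Dnmt3b lies between -2.09 and -0.55 depending on the ST-HSC array that is kept. The circles of Dnmt1 and Uhrf1 are open when an LT-HSC array is missing, and those of Uhrf1 1415811_at are open whichever array is missing.

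Genes of the cell cycle, in which maintenance methylation takes place, were set beside these values. Of 20 genes of DNA replication 16 were higher in ST-HSC, 0 were higher in LT-HSC and the other 4 missed the threshold, with a median difference of -1.87, and of 15 tested genes of G2 and mitosis 14 were higher in ST-HSC and 1 did not pass, with a median of -2.37. The median over all 12832 genes, each by its brightest probe set, was -0.08, and 14.3% of them passed, 6.40% higher in ST-HSC and 7.92% higher in LT-HSC. Pcna, the sliding clamp of the replication fork, read 1355 and 1491 against 2670 and 3370 (-1.35, SE 0.21, adjusted p = 0.0113). Mki67, a marker of cycling cells, read 989 and 1224 against 1901 and 2154 (-1.09, SE 0.21, adjusted p = 0.0231). The summed intensity of the replication genes was 9600 and 10500 on the LT-HSC arrays, and 27600 and 28600 on the ST-HSC arrays. Whether the difference in Dnmt1 and Uhrf1 goes beyond that of these genes was not tested. Fewer of the 35 cycle genes passed with an LT-HSC array left out, where calls over all genes fell as well.

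For each gene with a called probe set, the 5 nearest profiles among the other named probe sets were found by the root mean square distance over the 4 arrays, after each probe set was centred on its mean. For Dnmt1 they were Ncaph (a condensin subunit), Actn1 (an actin crosslinker), Cep128 (a centrosomal protein), Hnrnpab (an RNA-binding protein) and 3110082I17Rik, at distances of 0.042 to 0.058 on the log2 scale. For Uhrf1 they were G2e3, Nrm, Top2a (the mitotic topoisomerase), Fabp5 (a fatty acid carrier) and Zwilch (a kinetochore protein), at 0.043 to 0.080. For Tet1 1455425_at they were Mcm5 (a subunit of the replicative helicase), Cenpe (a kinetochore motor), Cnrip1, Peli2 and Taf1a, at 0.036 to 0.063. With 4 arrays such a likeness rests mostly on the difference between the groups.

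Other genes around DNA methylation were counted next. Of 64 listed genes 56 had a named probe set and 53 were tested. Of these, 7 were higher in ST-HSC, 3 were higher in LT-HSC and the other 43 missed the threshold, beside the 14.3% of all genes that passed in either direction, and their median was -0.33. That share is near the background, and nothing is read from it about the list. The count was 0 without LT-HSC replicate 1 or 2 and 25 or 21 with ST-HSC replicate 2 or 3 left out, where 2.13%, 2.22%, 37.2% and 27.5% of all genes passed. It was 5 with cyclic loess, 4 with no filter on dim probe sets and 6 with no intensity trend, where 14.3%, 7.87% and 11.9% of all genes passed.

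Among other writers and cofactors, 1 of 6 tested genes passed. Hells, a chromatin remodeller needed for methylation of repeats, read 21.9 and 64.1 on the LT-HSC arrays, and 293 and 580 on the ST-HSC arrays, a difference of -2.84 (SE 0.45, adjusted p = 0.012), and a second probe set of it passed as well (-1.46, adjusted p = 0.0403). Hells probe set 1430139_at did not pass (-0.87, adjusted p = 0.174). Uhrf2, the relative of Uhrf1, read 133 and 235 against 171 and 236 and differed by -0.03 (SE 0.36, adjusted p = 0.968). Dnmt3l, the partner of the de novo enzymes without activity of its own, read 3.17 to 8.20 on the 4 arrays and lay below the filter. Of 7 genes that supply S-adenosylmethionine, the methyl donor, Mtr (methionine synthase) passed, at 46.4 and 77.5 against 212 and 169 (-1.30, SE 0.31, adjusted p = 0.0408), with a list median of -0.53. The dimmer Mtr probe set 1458532_at did not pass (-0.55, adjusted p = 0.269). The call of Mtr was lost with cyclic loess (adjusted p = 0.0505) and with no filter on dim probe sets (adjusted p = 0.0606).

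Among 11 genes of removal and base excision, 1 was higher in each direction. Apex1, the endonuclease that cuts at sites without a base, read 623 and 640 on the LT-HSC arrays, and 1581 and 1885 on the ST-HSC arrays (-1.58, SE 0.21, adjusted p = 0.00738), and all 3 of its probe sets passed. Gadd45b, a stress-response gene linked to demethylation, read 709 and 657 against 176 and 98.0 (2.27, SE 0.32, adjusted p = 0.00806). Gadd45b probe set 1450971_at passed as well (2.10, adjusted p = 0.0146), and the dim 1420197_at did not (0.79, adjusted p = 0.44). Mbd4, the glycosylase with a methyl-CpG binding domain, read 143 and 152 against 111 and 88.2 and did not pass (0.64, SE 0.30, adjusted p = 0.2). Of 6 genes tied to Tet cofactors, D2hgdh, which removes the Tet inhibitor 2-hydroxyglutarate, read 371 and 370 against 194 and 109 (1.32, SE 0.32, adjusted p = 0.045). That call was lost with no normalization (adjusted p = 0.0534), no filter (adjusted p = 0.058) and no intensity trend (adjusted p = 0.0508). The dimmer D2hgdh probe set 1437243_at did not pass (0.62, adjusted p = 0.273). The median of the list was -0.59. Tdg was not analysed here.

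Of 11 other readers of CpG, Zbtb4, a zinc finger protein that binds methylated CpG, was higher in LT-HSC at 367 and 343 against 138 and 41.1 (2.06, SE 0.45, adjusted p = 0.0323). The dimmer probe sets of Zbtb4 did not pass, at 1.71, 0.94 and -0.09 (adjusted p = 0.0613, 0.12 and 0.914). Mbd3 read 35.5 and 37.1 on the LT-HSC arrays, and 94.9 and 151 on the ST-HSC arrays and did not pass (-1.24, SE 0.37, adjusted p = 0.0761). Of 12 genes of the NuRD and corepressor complexes, 4 were higher in ST-HSC and 8 did not pass, with a median of -0.27. They were the deacetylase gene Hdac2 (-1.54, adjusted p = 0.0442), the histone chaperones Rbbp4 (-0.68, adjusted p = 0.044) and Rbbp7 (-0.62, adjusted p = 0.0356), and Mta1 (-1.45, adjusted p = 0.0422). Dimmer probe sets of Hdac2 (1449080_at, -2.00, adjusted p = 0.0379) and Rbbp4 (1454875_a_at, -1.36, adjusted p = 0.0358) passed as well. So did Rbbp7 1415775_at (-0.78, adjusted p = 0.0241). Hdac2 1439704_at (-0.55, adjusted p = 0.291) did not pass, nor did Rbbp4 1454791_a_at (-0.51, adjusted p = 0.298) and 1456260_at (-0.35, adjusted p = 0.588). With cyclic loess none of the 4 passed, at -1.45 for Hdac2, -0.49 for Rbbp4, -0.51 for Rbbp7 and -1.34 for Mta1 (adjusted p = 0.0559, 0.141, 0.106 and 0.052), and with no filter none did either. After median centring Rbbp4 and Rbbp7 shrank to -0.28 and -0.24 (adjusted p = 0.599 and 0.665).

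**Figure D5:**
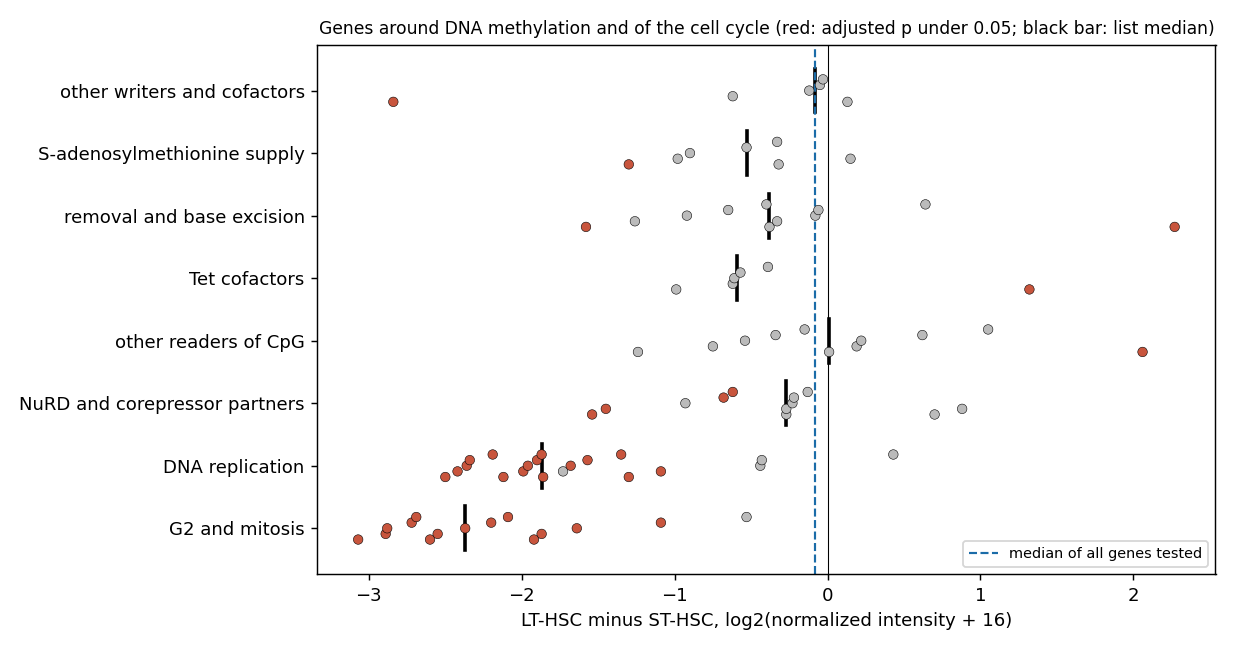
Difference between LT-HSC and ST-HSC (LT-HSC minus ST-HSC, log2 scale) of the tested genes around DNA methylation and of 2 cell cycle lists, each gene by its brightest probe set; red marks passed limma's test, black bars are list medians and the dashed line is the median of all 12832 genes (-0.08). The methylation lists have medians from -0.59 to 0.01, and the 2 cycle lists -1.87 and -2.37.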

How the data were processed

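RNA of sorted cells was amplified in 2 rounds and labelled with biotin for Affymetrix arrays, per the labels' protocols. The authors deposited a linear, unlogged intensity for every probe set on each array. The file holds no detection calls. Which software summarised the probes, and whether arrays were scaled, is not given in the sources used here. Array medians were 19.1 and 28.3 (LT-HSC) and 26.9 and 26.0 (ST-HSC). The table held 45101 probe sets, 64 of them controls.

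Arrays were quantile normalized and log2(intensity + 16) was taken. Probe sets with a 4-array mean above the 40th percentile, 27022 in all, were fitted with limma 3.58.1 in R 4.3.3 (lmFit, eBayes with an intensity trend, 2 residual and 4.83 prior degrees of freedom), which was tested on simulated data. The number of arrays limits the precision, and a missed threshold is not read as no difference. Symbols come from the annotation of the platform, in which 34945 probe sets had 1 symbol, 932 several, and 9160 are unnamed here. A list gene stood by its brightest tested probe set.

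Named genes were all probe sets of the 9 genes, listed genes past the threshold, Dnmt3l, Uhrf2, Hells, Mbd3, Mbd4 and Tdg, the gate markers, Pcna and Mki67, and the nearest profiles; some items are not reported here. The genes and lists were chosen with earlier results of these data known. Alternatives were 3 other normalizations, 2 pseudocounts, 2 filters, 2 spread models, the mean of a gene's probe sets, and each array left out with the same probe sets tested.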

Additional observations from a re-analysis of the deposited data

How the results depend on the processing

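The 5 called probe sets of Dnmt1, Uhrf1 and Tet1 kept their direction under all 13 alternatives and passed under 11 of them, the exceptions being the fits without either LT-HSC array. A group left with 1 array was assumed to vary like the other. Centring the arrays on their medians gave 8 called probe sets of the 9 genes, where 15.1% of all probe sets passed. The count for the other methylation genes, 10 with all arrays, was 5 with cyclic loess, 4 with no filter and 6 with no intensity trend, and each of those 10 genes kept its direction under all 13 alternatives. With each array left out, the count over all probe sets ran from 486 to 8713, that of the 9 genes from 0 to 10, that of the other methylation genes from 0 to 25 and that of the cycle genes from 1 to 33. Averaging the tested probe sets of a gene left the calls of Dnmt1 (-1.61, adjusted p = 0.00609) and Uhrf1 (-1.86, adjusted p = 0.00473), and Tet1 stood at -0.30 (adjusted p = 0.541). No paired analysis was possible because the groups share only 1 replicate number. Depth is not defined for array intensities, and dim probe sets have no detection call here.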

Other observations

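Some genes around DNA methylation had a called probe set that was not their brightest, and so did not enter the counts by gene. They were chosen after their values were seen. Shmt1, a serine hydroxymethyltransferase of the folate cycle, differed by -1.99 on probe set 1425179_at (adjusted p = 0.0151) but by 0.15 on its brightest one. Zbtb38, a zinc finger reader of methylated CpG, differed by 2.02 on probe set 1438269_at (adjusted p = 0.0399) and by 0.22 on its brightest one. Lig3, a ligase of base excision repair, differed by 1.38 on probe set 1423419_at (adjusted p = 0.0294) and by -0.08 on its brightest one. Trim28, a corepressor that protects methylation at imprinted genes, differed by -1.10 on probe set 1415869_a_at (adjusted p = 0.0195) and by -0.62 on its brightest one. Mthfd1, an enzyme of the folate cycle, differed by -1.26 on probe set 1415917_at (adjusted p = 0.0375) and by -0.90 on its brightest one.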
